A study of Mus musculus with 6 samples.

Results

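Expression of 3 genes was examined in mouse embryonic stem (ES) cells that had been sorted on the 2C::tomato reporter. They are Ubtfl1, its neighbour on chromosome 9 Naalad2, and Ubtf, the single-copy gene from which Ubtfl1 derives. They were chosen by name and position with their measured values in this comparison already known, so their differences are described here without a test. Each has 1 probeset, the set of array probes summarised as 1 value (10583359 for Ubtfl1, 10591139 for Naalad2 and 10391625 for Ubtf), and the 3 genes are part of 19938 named genes and 35556 probesets in all. The 6 samples were ES cells titled WT, grown on gelatin, of which 3 were 2C::tomato-positive and 3 were 2C::tomato-negative after fluorescence sorting. All came from a protocol that names vehicle or 4OHT, the latter to delete Kdm1a, and the labels do not say which of the treatments these 6 received. In published work the reporter is driven by the promoter of an endogenous retrovirus that is active at the two-cell stage, so the positive cells are those in which that promoter is on, and few ES cells are positive at a given time. Values are log2 expression, normalized by the authors.

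Ubtf encodes the upstream binding factor, a nucleolar protein with several HMG boxes, the DNA-bending domains of the high mobility group. It coats the ribosomal DNA repeats and, with the TBP-containing factor SL1, brings RNA polymerase I to their promoter. Ubtfl1, also called Hmgpi, encodes a related HMG-box protein of the preimplantation mouse embryo. Naalad2 encodes glutamate carboxypeptidase III, a membrane peptidase of the M28 family that can release glutamate from N-acetylaspartylglutamate. Genes and repeats of the two-cell embryo are the transcripts for which reporter-positive ES cells are known.

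Ubtfl1 and Naalad2 lie head to head. In RefSeq (GRCm38.p6) Ubtfl1 is read from the plus strand and Naalad2 from the minus strand, the outer start of Naalad2 lies 6880 bases from the start of Ubtfl1, and 1 pseudogene, Gm19174, lies between them. RefSeq windows of 250 bases before to 50 bases after a start were matched for all 3 genes: 1 window for Ubtfl1, 2 for Naalad2 and 6 for Ubtf. The 250 bases before the start are shown for Ubtfl1 (chr9:18404168-18404417, plus strand), for the outer start of Naalad2 (chr9:18397539-18397788, minus strand) and for the most GC-rich of the 6 starts of Ubtf (chr11:102317872-102318121, minus strand), because the neighbours share a stretch of bases and this start of the parent is the one furthest from theirs in composition. Capitals mark the shared run in Ubtfl1, the motif TGCACAC in Naalad2, and GGGCGG on either strand in Ubtf. The last line is the shared run as the Naalad2 strand reads it.
Ubtfl1: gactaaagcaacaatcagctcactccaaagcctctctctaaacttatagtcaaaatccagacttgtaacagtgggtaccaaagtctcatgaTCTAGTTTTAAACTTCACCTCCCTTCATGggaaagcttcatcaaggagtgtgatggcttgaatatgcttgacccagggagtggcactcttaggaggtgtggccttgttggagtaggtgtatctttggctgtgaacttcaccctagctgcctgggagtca
Naalad2: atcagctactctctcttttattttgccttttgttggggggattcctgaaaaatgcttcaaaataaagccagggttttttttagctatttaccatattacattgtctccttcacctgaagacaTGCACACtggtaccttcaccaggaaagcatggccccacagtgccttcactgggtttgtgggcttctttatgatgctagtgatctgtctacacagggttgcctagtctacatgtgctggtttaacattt
Ubtf: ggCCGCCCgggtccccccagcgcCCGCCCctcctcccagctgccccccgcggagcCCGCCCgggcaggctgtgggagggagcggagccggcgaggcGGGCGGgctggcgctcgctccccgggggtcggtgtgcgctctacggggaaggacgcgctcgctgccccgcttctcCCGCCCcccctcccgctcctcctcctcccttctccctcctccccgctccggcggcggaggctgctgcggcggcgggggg
Naalad2 shared run: CATGAAGGGAGGTGAAGTTTAAAACTAGA

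The capital run in Ubtfl1 is 29 bases long, lies 159 to 131 bases before its start, and is found on the opposite strand in Naalad2, at bases 22 to 50 of the transcript from the outer start. Of 32851 windows of this length, 2 held the run on either strand, those of Ubtfl1 and Naalad2. Extended without gaps towards the start of Ubtfl1, the match covered 48 bases with 45 identical (93.8%). Base 50 is the last of the Naalad2 window, so the match could not be followed past it, and both lengths are lower bounds. No other window of Naalad2 or Ubtf shared more than 9 bases in a row with that of Ubtfl1. Shorter pieces of the Ubtfl1 window were less rare than the run. Of its 20-base words, 33 were also found in other windows, 66 in all (0.201%), from 66 genes. Parts of this window thus recur at genes other than the neighbour, and what kind of sequence they are was not tested. The run was looked for only in these windows, after the sequences had been seen, and copies elsewhere in the genome were not examined.

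The starts of the parent varied in composition, and 1 of them was close to that of the copy in its share of G and C. The Ubtfl1 window had 46.0% G and C and 0 CpG dinucleotides. The windows of Naalad2 had 42.3% at the outer and 48.3% at the inner start, with 1 and 4 CpG. The 6 windows of Ubtf ran from 46.3% to 82.3%, with 6 to 40 CpG, and the median over all windows was 52.7% with 7 CpG. On both strands, 7 motifs were searched. The Ubtfl1 window held none of them: TATAAA, present in 13.6% of all windows, CCAAT in 37.4%, GGGCGG in 35.7%, TGCACAC in 4.40%, CACGTG in 7.15%, GATAAG in 7.44%, and the palindromic motif of the two-cell factor Dux in 0.0335%. Naalad2 held TGCACAC at its outer and CCAAT at its inner start. Ubtf held GGGCGG in 5 of 6 windows and CCAAT in 1. A match of letters is not a bound site.

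Ubtfl1, the HMG-box gene of the early embryo, stood at 6.91, 10.27 and 6.21 log2 units in positive arrays 1, 2 and 3, and at 5.73, 5.47 and 5.95 in negative arrays 1, 2 and 3. All positive arrays lay above all negative arrays, positive array 2 by far the highest, and the gap between the lowest positive and the highest negative array was 0.26. The mean was 7.80 ± 2.17 (SD, n = 3) for the positive arrays and 5.72 ± 0.24 (SD, n = 3) for the negative arrays, 2.08 apart on the log2 scale (SE 0.96), or 4.23-fold. Between same-numbered arrays the differences were 1.18, 4.80 and 0.26 for numbers 1, 2 and 3, or 2.27-fold, 27.9-fold and 1.20-fold. The positive arrays therefore spread over more of the scale than the groups were apart, and without positive array 2 the difference was 0.84 (SE 0.24), or 1.79-fold. Fewer cells of a kind and less RNA per cell cannot be told apart in such sorted bulk samples.

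The probeset of Ubtfl1 was in the lower part of the scale in the negative arrays. Whether it was above background there was not tested, and the authors' normalization can understate differences from that level. In the negative arrays 27.8% to 32.8% of all probesets were dimmer, in positive arrays 1 and 3 this was 48.5% and 37.5%, and in positive array 2 it was 84.3%. By mean difference Ubtfl1 ranked 23 among 19938 genes. It ranked 37 in pair 1, 22 in pair 2 and 1957 in pair 3, so in the third pair 9.81% of genes had a larger difference.

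**Figure D1:**
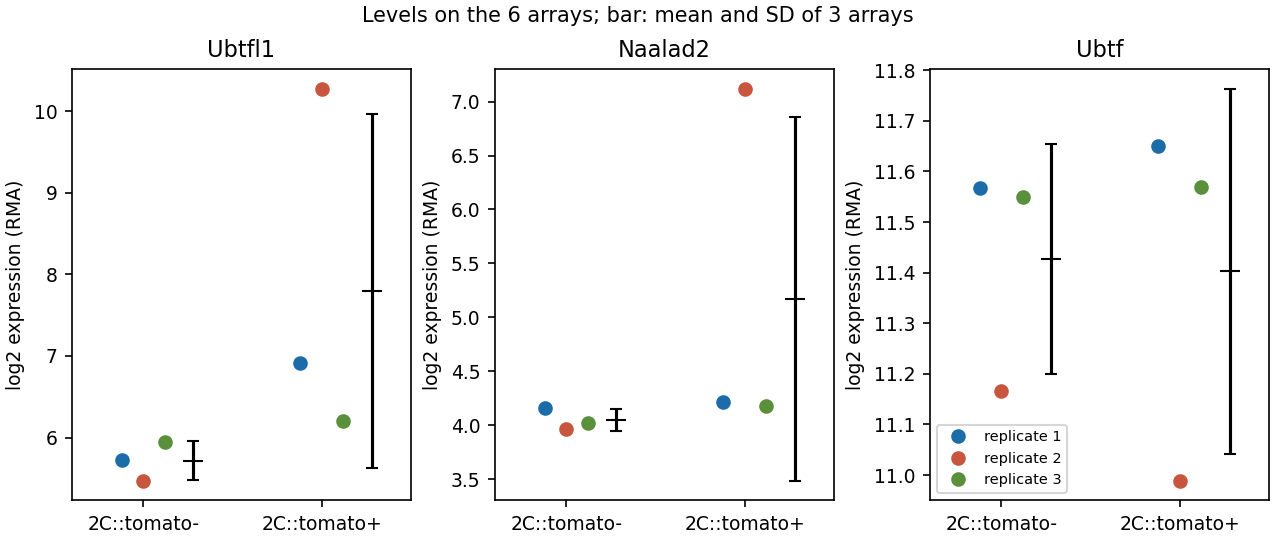
Log2 expression of Ubtfl1, Naalad2 and Ubtf (1 panel each, each with its own axis, not starting at 0) on the 3 2C::tomato-negative and 3 2C::tomato-positive arrays, coloured by replicate number, with the mean and SD of 3 arrays beside them. Positive array 2 stands at 10.27 for Ubtfl1 and 7.12 for Naalad2, while for Ubtf both arrays numbered 2 are the lowest.

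Naalad2, the peptidase gene that holds the other copy of the shared run, was at 4.22, 7.12 and 4.18 in positive arrays 1, 2 and 3, and at 4.16, 3.97 and 4.02 in negative arrays 1, 2 and 3. Positive array 2 alone was high, and the other 5 lay between 3.97 and 4.22. The groups did not overlap, but the lowest positive array was above the highest negative array by only 0.020. The means were 5.17 ± 1.69 (SD, n = 3) and 4.05 ± 0.10 (SD, n = 3), a difference of 1.12 (SE 0.74), or 2.18-fold. By number the differences were 0.060, 3.15 and 0.16, so that pair 2 alone differed by 8.88-fold. Without positive array 2 the difference was 0.15 (SE 0.12).

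On those 5 arrays Naalad2 was among the dimmest probesets, with 7.01% to 9.01% of all probesets below it, against 51.7% in positive array 2. Differences at this end of the scale can be understated by the authors' normalization. In pair 2 Naalad2 ranked 54 among all genes and Ubtfl1 22, whereas in pair 1 their ranks were 6912 and 37. Measured from the mean of the negative arrays, positive array 1 was 1.20 higher for Ubtfl1 and 0.17 higher for Naalad2, and positive array 2 was 4.56 and 3.07 higher. Over the 6 arrays the levels of the neighbours had a Pearson r of 0.97, which was 0.75 over the 5 arrays other than positive array 2 and 0.58 over the 4 arrays not numbered 2. These values describe arrays that share the sort and the normalization.

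**Figure D2:**
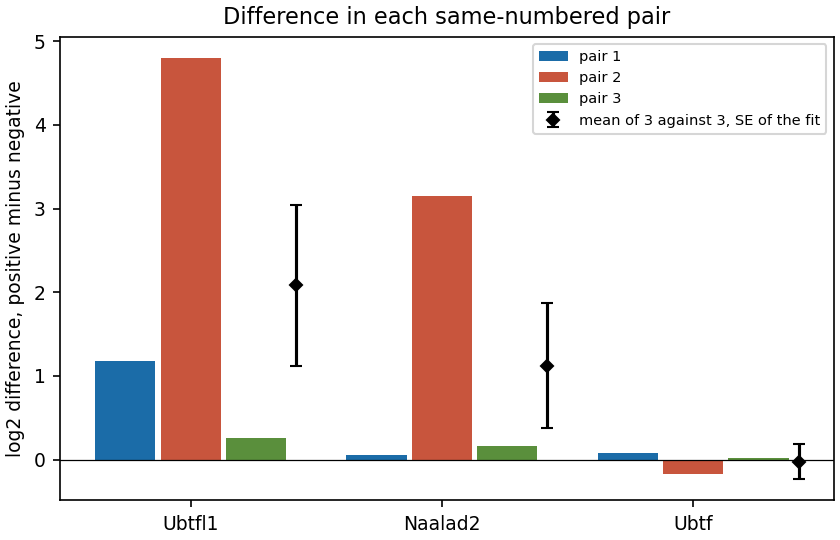
Log2 difference (positive minus negative) of Ubtfl1, Naalad2 and Ubtf in each same-numbered pair (bars), with the difference of the means and its SE from the limma fit (diamonds). Pair 2 has the tallest bar for Ubtfl1 (4.80) and Naalad2 (3.15), and the bars of Ubtf lie between -0.18 and 0.083.

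Ubtf, the parent gene, was at 11.65, 10.99 and 11.57 in positive arrays 1, 2 and 3, and at 11.57, 11.17 and 11.55 in negative arrays 1, 2 and 3. Its groups overlapped, and in both the array numbered 2 was the lowest. The means were 11.40 ± 0.36 (SD, n = 3) and 11.43 ± 0.23 (SD, n = 3), a difference of -0.02 (SE 0.21). By number the differences were 0.083, -0.18 and 0.020, all within the spread of either group. The sign of the mean difference turned with the array left out, from -0.16 without negative array 2 to 0.18 without positive array 2. With 90.1% to 94.0% of probesets dimmer, Ubtf was bright on every array. On positive array 2, where Ubtfl1 was highest, Ubtf was lowest of the 6, and on negative array 2 both genes were at their lowest among the negative arrays. The Pearson r of Ubtfl1 and Ubtf was -0.62 over the 6 arrays, 0.73 without positive array 2 and 0.92 over the 4 arrays not numbered 2, so its sign turned with 1 array. Whether transcripts of the copy and the parent bind each other's probes was not tested, as probe sequences were not used here.

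Over all genes, limma put 0 of 19938 (0%) below an adjusted p of 0.05 (smallest 0.910), with 388 genes higher and 490 lower at 0.05 when p was left unadjusted. Blocking on the replicate number also gave 0 genes, and 1076 higher and 1318 lower by unadjusted p. Of the 3 genes, 2, Ubtfl1 and Naalad2, were at least 2-fold higher on the mean, as were 0.512% of all genes. The same 2 were higher without overlap between the groups, as were 813 or 4.08% of all genes, against 1426 or 7.15% lower without overlap (587 higher and 2208 lower after a second quantile normalization, 705 and 820 without the dimmest genes). They were higher in all 3 pairs, as were 15.1%. They were also among the 238 genes (1.19%) for which positive array 2 was at least 2-fold above each of the other 5 arrays. As the genes were picked with this comparison known, nothing is read from these counts.

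Within that last pattern the neighbours took different forms. Of the 102 genes at least 2-fold higher on the mean, 90 had positive array 2 at least 2-fold above every other array, and 88 were ordered positive array 2, then 1, then 3. Ubtfl1 and Naalad2 both had that order, but for Naalad2 the step between arrays 1 and 3 was 4.22 against 4.18, a step smaller than the spread of its negative arrays. Of the 238 genes set apart on positive array 2, 78 had their other 5 arrays within 0.5 log2 units, as did Naalad2, whose 5 arrays spanned 0.25. For Ubtfl1 the other 5 arrays ran from 5.47 to 6.91. On those arrays Naalad2 was among the dimmest probesets, where the normalization can understate differences, so this contrast of forms may be one of brightness. By the size of the gap between positive array 2 and the next array, Ubtfl1 (3.36) ranked 14 and Naalad2 (2.90) ranked 27 of all genes.

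The genes next to this pair had smaller differences. The 5 nearest measured genes on each side of Ubtfl1 were taken in RefSeq order, and the 9 besides Naalad2 had differences between -0.16 and 0.29, with 3 above and 6 below 0. Of these 9, 0 passed the limma test (0 at an unadjusted p under 0.05), 0 were at least 2-fold apart and 0 had groups without overlap. Over all genes 0% passed, 4.4% had an unadjusted p under 0.05 and 0.512% were at least 2-fold higher. Without overlap, 4.08% were higher and 7.15% lower. For 9 genes, counts of 0 are near these shares, so nothing is read from them. Chordc1, which encodes an HSP90 cochaperone and lies beyond Naalad2, was at 10.71, 10.26 and 11.0 in positive and at 10.67, 10.41 and 10.91 in negative arrays, a difference of -0.01 (SE 0.22). Its arrays overlapped and, as for Ubtf, those numbered 2 were the lowest. Fat3, an atypical cadherin gene further out, was at 6.85, 7.67 and 7.04 in positive and 7.0, 6.73 and 6.94 in negative arrays. Its difference of 0.29 (SE 0.22) came with 0.94 in pair 2, the largest pair 2 value of the 9 genes.

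On the Ubtfl1 side, Mbd3l2, of the methyl-binding-domain-like genes, differed by -0.08 (SE 0.13) and its relative Mbd3l1 by -0.06 (SE 0.11). Zfp558, a zinc finger gene between them, differed by 0.08 (SE 0.12), the mucin gene Muc16 by -0.06 (SE 0.13), and the olfactory receptor gene Olfr24 by -0.09 (SE 0.11). At the outer end of the Naalad2 side, Mtnr1b, a melatonin receptor gene, differed by -0.16 (SE 0.12) and Slc36a4, an amino acid transporter gene, by 0.12 (SE 0.29). Mbd3l1, Mbd3l2 and Muc16 lay between 4.02 and 4.56 on every array, also at the dim end of the scale. Genes between the named neighbours that had no probeset with a symbol of their own were not analysed here.

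**Figure D3:**
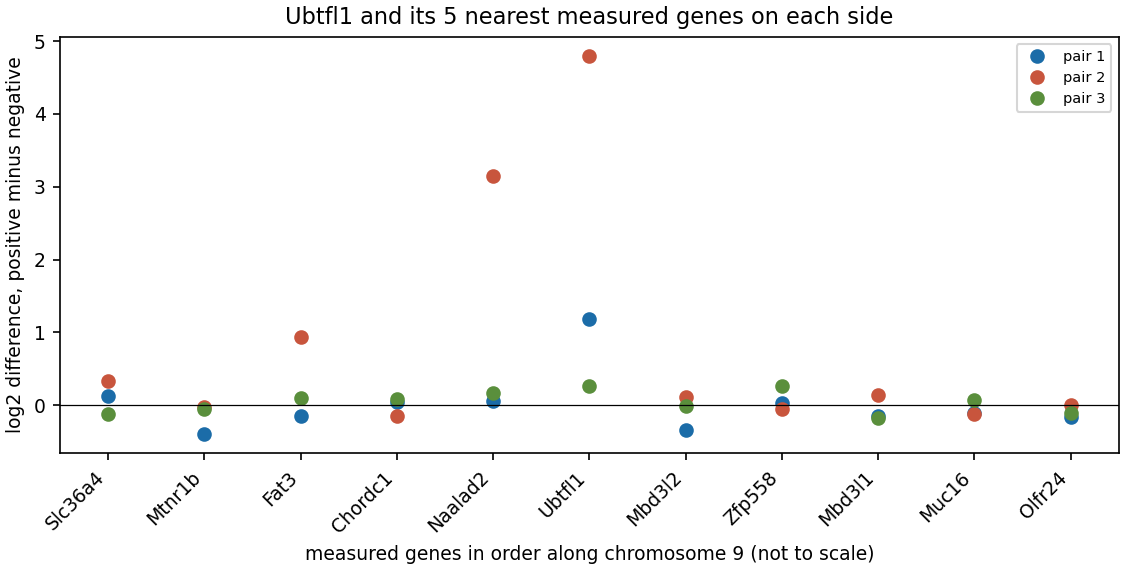
Log2 difference (positive minus negative) in each same-numbered pair for Ubtfl1 and the 5 nearest measured genes on each side, in their order along chromosome 9 and not to scale. Pair 2 stands at 4.80 for Ubtfl1 and 3.15 for Naalad2, and between -0.15 and 0.94 for the other 9 genes.

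The partners of Ubtf in RNA polymerase I transcription were counted next, with 20 genes measured and 3 of the 23 listed symbols being newer names of the same genes. None passed the limma test (0 of 20, and 0 at an unadjusted p under 0.05), 7 were above and 13 below 0, and the median difference was -0.04, the same as over all genes (-0.04). No member had groups without overlap. At the ends of the list, Polr2k and Polr1a, subunits of the enzyme, differed by 0.23 (SE 0.20) and 0.18 (SE 0.15), and Polr2h and Znrd1, also subunits, by -0.27 (SE 0.21) and -0.21 (SE 0.28). The median of the list was 0.12 without positive array 2, where that of all genes was -0.03, and -0.17 without negative array 2.

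Ubtf was one of 4354 genes (21.8%) whose arrays numbered 2 were, in both groups, below the other 4 arrays. On average it was 0.51 log2 units lower in the arrays numbered 2, with the other 4 between 11.55 and 11.65. Of the 20 polymerase I genes, 13 (65.0%) had both arrays numbered 2 below the other 4, and 1 had both above, with a median of -0.27 against -0.06 over all genes. Chosen after their values were seen, Taf1a and Taf1d, subunits of SL1, differed by -1.12 and -0.67 between the arrays numbered 2 and the others, Polr1b, the second-largest subunit of the enzyme, by -0.79, and Tbp by -0.49. Polr1d was 0.29 higher. Rrn3, the factor that makes the polymerase competent to start, differed by -0.20, although its negative array 2 was below the other 4 by less than 0.01. What the replicate numbers mark is not given in the labels.

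Some markers of other cells also differed by replicate number, and some between the groups. The summed level of 11 fibroblast feeder markers, as a mean per gene, was 8.40 and 8.52 in positive and negative array 2, against 7.65 to 8.14 on the other 4 arrays, and 4 of the 11 (Acta2, Tagln, Col1a2 and Postn) had both arrays numbered 2 above the rest, as had 17.8% of all genes. Without Acta2 and Tagln, left out after their values were seen, the mean of the other 9 was 7.93 and 7.88 in the arrays numbered 2 and 7.77 to 7.93 elsewhere, so those 2 smooth muscle genes carried the difference. Acta2, smooth muscle actin, was at 11.21 and 11.82 in the arrays numbered 2 and between 7.70 and 9.85 elsewhere. Tagln, transgelin, was at 9.86 and 10.96 against 6.50 to 8.44. Lum, a proteoglycan gene, lay between 3.73 and 3.85 on every array. It was the dimmest of the 11, at the dim end of the scale, so its level cannot show the share of fibroblasts. The 9 ES cell markers averaged 11.89 and 12.08 in the arrays numbered 2 and 12.25 to 12.36 elsewhere. Of these 9, 4 had both arrays numbered 2 below the other 4, beside 21.8% of all genes, and 0 had both above. Nanog and Dppa5a, named after their values were seen, were highest in positive array 2, at 12.98 and 13.70. Of 5 trophectoderm markers 3 had both arrays numbered 2 above the rest and 1 had both below, beside 17.8% and 21.8% of all genes. Their mean level was 8.90 and 8.80 in the arrays numbered 2, against 7.91 to 8.42 elsewhere. The 5 primitive endoderm markers averaged 8.08 and 8.07 in the arrays numbered 2, inside the 7.46 to 8.21 of the others. Of these 5, 2 had both arrays numbered 2 above the rest and 1 had both below. Between groups the median difference of the feeder markers was -0.29, with 4 above and 7 below 0, beside -0.04 over all genes. Acta2 (-1.16, SE 1.06) and Tagln (-1.13, SE 1.06) were 2 of the 3 genes at least 2-fold lower among all 19938. The medians were -0.39 for primitive endoderm (1 above and 4 below 0), -0.16 for trophectoderm (2 and 3) and -0.08 for ES cell markers (3 and 6). Of these markers 0 passed the limma test. The part of other cells in the levels of Ubtf, Ubtfl1 and Naalad2 was not tested.

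**Figure D4:**
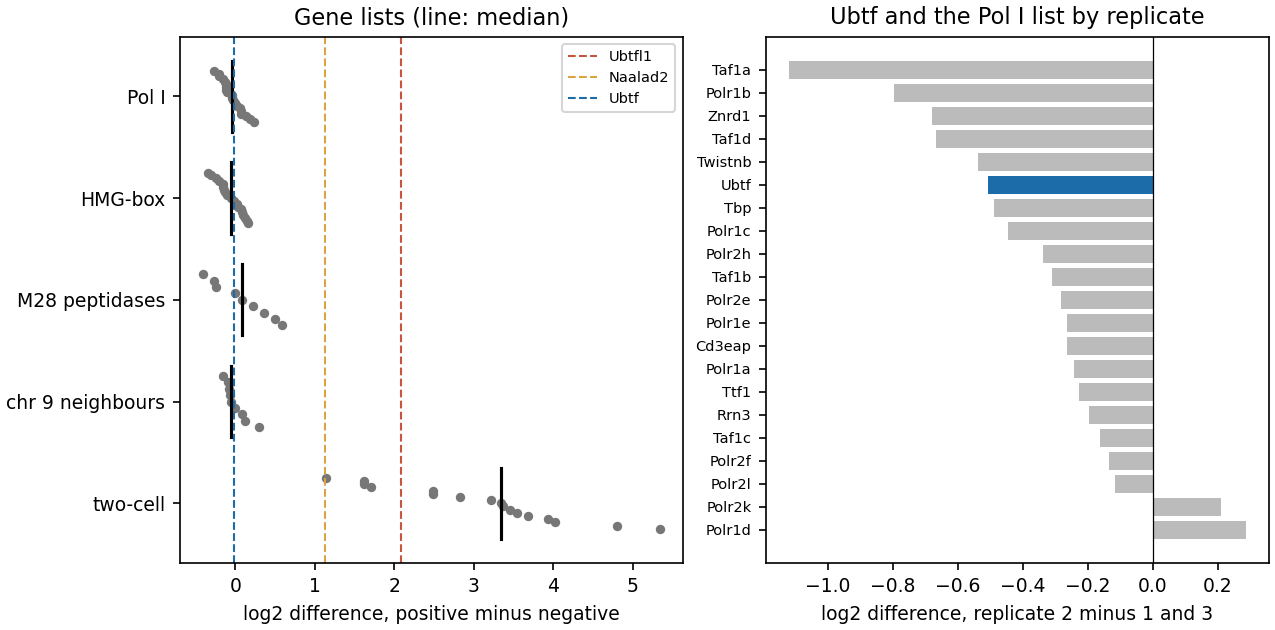
Left, log2 difference (positive minus negative) of each gene in 5 lists (dots, with the list's median as a line; Naalad2 left out of the neighbours), with the 3 genes of interest as dashed lines. Right, log2 difference between the arrays numbered 2 and those numbered 1 and 3, over both groups, for Ubtf (-0.51) and the 20 polymerase I genes. On the left, Ubtf lies within the polymerase I, HMG-box and neighbour lists and Ubtfl1 (2.08) within the range of the two-cell list.

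The other HMG-box genes, taken without the Sox family, were counted beside Ubtfl1. Of 22 listed genes 19 were measured, 0 passed the limma test (1 at an unadjusted p under 0.05), 8 were above and 11 below 0, and the median was -0.05. None was at least 2-fold apart, 0 were higher without overlap and 2 were lower, beside 4.08% and 7.15% of all genes. The 2 genes with the highest differences were Lef1, a nuclear effector of Wnt signalling, at 0.16 (SE 0.53), and Bbx at 0.14 (SE 0.29). The lowest were Tox2, of the TOX family, at -0.34 (SE 0.13, limma adjusted p = 0.910), and Tox3 at -0.30 (SE 0.27).

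Among the M28 relatives of Naalad2, all 9 were measured and 0 passed the limma test (2 at an unadjusted p under 0.05, or 4 when blocked by replicate number, beside 4.4% and 12.0% of all genes). Of the 9, 5 were above and 4 below 0, with a median of 0.08 that ran from 0.013 without positive array 2 to 0.17 without positive array 1. Folh1, which encodes glutamate carboxypeptidase II and is the closest in function, was between 4.89 and 5.09 on all 6 arrays and differed by -0.0035. Qpctl, a Golgi glutaminyl cyclase, was at 8.83, 9.46 and 8.71 in positive and 8.52, 8.49 and 8.24 in negative arrays, a difference of 0.58 (SE 0.21). Tfr2, transferrin receptor 2, was at 7.33, 7.72 and 7.24 against 7.03, 7.0 and 6.77, a difference of 0.50 (SE 0.16). These 2 of the 9 were the members whose groups did not overlap, both higher, beside 4.08% of all genes, with positive array 2 the highest in each, and limma gave each an adjusted p of 0.910. At the other end, Tfrc, transferrin receptor 1, differed by -0.41 (SE 0.35) and Cpq by -0.27 (SE 0.19).

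The two-cell list is the group of genes with which Ubtfl1 is usually named. Of its 29 symbols 17 had a probeset of their own, and 10 of the other 12 lay on probesets shared by several genes, the Zscan4 genes among them. Its 17 measured genes were 1.14 to 5.34 higher. All were without overlap, and all had positive array 2 at least 2-fold above every other array, beside 4.08% and 1.19% of all genes. Of the 17, 0 passed the limma test over all genes, and 13 had an unadjusted p under 0.05, beside 4.4% of all genes. This list holds genes picked from these arrays and from earlier studies of the reporter, so its direction is no independent evidence. The extremes were Gm5662 (5.34, SE 1.02) and Tdpoz3 (4.80, SE 1.00), and Tdpoz1 (1.14, SE 0.56) and Pramel7 (1.61, SE 0.59), all of families with near-identical copies. The list's median difference was 3.34, and 2.18 without positive array 2.

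By number the median of the two-cell list was 2.88, 5.81 and 1.34, beside 1.18, 4.80 and 0.26 for Ubtfl1 and 0.060, 3.15 and 0.16 for Naalad2. In positive array 1, where the list's mean level was 8.34 against 5.75 to 6.05 in the negative arrays, Ubtfl1 was 1.20 above its own negative mean and Naalad2 0.17. In positive array 3 the list's mean level was 7.22, and the 2 neighbours were 0.49 and 0.13 above their negative means. Both neighbours thus had smaller differences than the list's median in each of the pairs. Whether they differ from it was not tested, as the list and the genes were chosen on these arrays.

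The genes most like Ubtfl1 over the 6 arrays were sought among 2269 others that spanned at least 1 log2 unit. The 8 with the highest Pearson r (0.996 to 0.998) were Pramel17, Tdpoz1, Cwc22, Spdye4b, Zfp353-ps, Drd3, A530040E14Rik and Ninj2. Pramel17, of the PRAME-like family, was at 6.18, 10.35 and 5.39 in positive and 5.04, 4.74 and 5.10 in negative arrays, and Drd3, a dopamine receptor gene, at 6.96, 9.20 and 6.34 against 6.0, 5.88 and 5.99. Cwc22, a splicing factor gene, was bright throughout, at 11.01, 12.78 and 10.55 against 10.28, 10.20 and 10.28. Like Ubtfl1, all 8 had positive array 2 highest and positive array 1 next, an order favoured by their choice over these same arrays. Their r with Ubtfl1 over the 4 arrays not numbered 2 had a median of 0.97, which is not independent of that choice either. The choice of genes was loose, since 13.3% of the candidates had an r of at least 0.9, and over those 4 arrays 0 of the 8 were again among the top 8.

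Naalad2 was most like another set: Pllp, Gm11487, 0610040J01Rik, Epm2a, Nmur2, Tcstv3, Colgalt2 and C1d (r from 0.994 to 1.00). Epm2a, which encodes the glycogen phosphatase laforin, was at 6.62, 10.04 and 6.38 in positive and 6.51, 6.48 and 6.19 in negative arrays. Pllp, which encodes plasmolipin, was at 7.34, 8.82 and 7.34 against 7.34, 7.19 and 7.25. In this set as well positive array 2 stood furthest above the rest, as their choice by r with Naalad2 over these arrays favours. Without it the differences of the 8 ran up to 0.31, for Tcstv3. The positive array 1 of Tcstv3 was also above its negative arrays, at 5.51 against 4.95 to 5.05. Over the 4 arrays not numbered 2 their r with Naalad2 had a median of 0.70, and 0 of the 8 were again among the top 8. Ubtf spanned 0.66 log2 units, below the 1 asked for, and was given no such set.

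**Figure D5:**
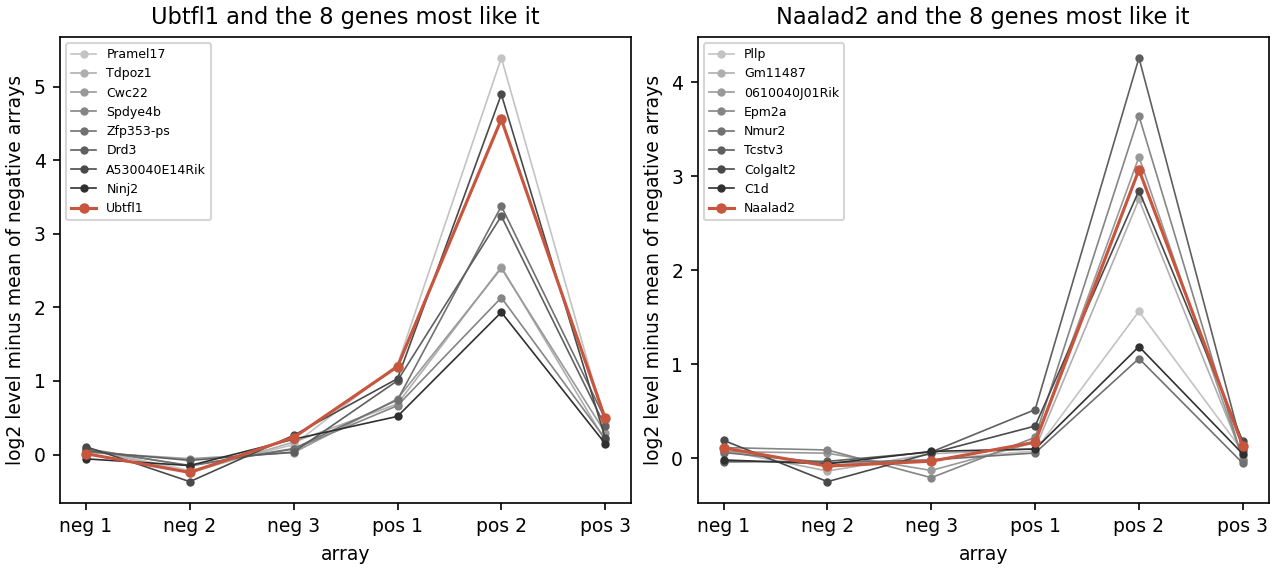
Level on each array minus the mean of the 3 negative arrays, in log2 units, for Ubtfl1 (left, red) and Naalad2 (right, red) with the 8 genes most like each (grey). Lines join the arrays of a gene and mark no order. The left set lies above its negative mean in positive array 1 as well (Ubtfl1 by 1.20), while Naalad2 is 0.17 above it there and 3.07 above it in positive array 2.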

How the data were processed

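Expression was measured with an Affymetrix whole-transcript array on total RNA from 6 samples of mouse ES cells, 3 per group. The authors deposited log2 expression values, made with RMA in Affymetrix Expression Console per the submitters' processing notes. RMA subtracts background, equalises the quantiles of the arrays and summarises probes, which draws dim probesets together and removes differences in total RNA. The sources used here give no version, genome build or annotation. Array medians lay between 6.95 and 7.04, arrays correlated at r between 0.961 and 0.992 over all probesets. Precision is limited by the number of arrays.

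Genes were named through the platform annotation: 21789 probesets had 1 symbol, 1621 several and 12146 none. By gene identifier 21698 matched RefSeq (GRCm38.p6), with 0 symbols changed. RefSeq gave names, gene order and start windows. Of several probesets for a gene (999 genes), the brightest on average was kept. Groups were compared across 19938 genes with limma 3.58.1 in R 4.3.3 (lmFit, eBayes, two-sided, Benjamini-Hochberg). Errors are the SD over arrays or the SE of the fit. The fit was tested on simulated data. The members and lists were chosen with earlier results of these data known. Named are the 3 members, all neighbours, the 2 highest and 2 lowest genes of each list and the 8 genes most like a member; other names are said to be chosen afterwards, or, as Folh1 and the markers of other cells, were chosen after their values were seen. Alternatives were the replicate block, leaving out arrays, other scalings, array weights, a filter on dim genes and all probesets.

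The replicate numbers are taken from the titles. Deviations from the group means correlated between same-numbered arrays at 0.55, 0.55 and 0.46 for numbers 1, 2 and 3. The numbers were therefore taken to pair the arrays in the differences by number and in the replicate block. Each SE printed is from the fit without that block, and so holds spread that same-numbered arrays share. For Lef1, with an SE of 0.53, the differences by number were 0.18, 0.081 and 0.22. Nothing in the labels says whether the samples within a group are separate cultures. The p-values therefore cover the spread among these samples alone, and that spread may be technical.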

Additional observations from a re-analysis of the deposited data

How the results depend on the processing

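The difference of Ubtfl1 stayed above 0 under every alternative run, between 0.84 and 2.88 with 1 array left out, and was 0.98 with array weights and 0.72 without both arrays numbered 2, an alternative chosen after seeing the data. That of Naalad2 was above 0 as well, between 0.15 and 1.62, 0.38 and 0.11 in the same order. Ubtf lay between -0.16 and 0.18, at 0.04 with array weights and 0.05 without both arrays numbered 2. Median centring and a second quantile normalization moved these 3 values by less than 0.06. With a replicate block the differences keep their values (2.08, 1.12 and -0.02) by construction, and the block changed no call. The median of the HMG-box list was -0.12 without positive array 3 and 0.08 without both arrays numbered 2. No gene of any list passed under any alternative. Genes at least 2-fold higher numbered 45 without positive array 2 to 182 without positive array 3, and 30 without both arrays numbered 2. Genes higher without overlap numbered 1202 to 2194 with 1 array left out, and 3838 without both, where fewer arrays make overlap rarer by construction. Of the 8 genes most like Ubtfl1, 3 were among the top by Spearman's rho, with 20 genes tied at 1, and of those most like Naalad2 0 were, with 39 tied. Each member has 1 probeset, so other probesets could not be tried.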
